A study of Arabidopsis thaliana with 30 samples.

Results

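IAA30 (AT3G62100), IAA31 (AT3G17600) and YUC4 (AT5G11320) are auxin genes of Arabidopsis thaliana, and their transcript levels were followed in developing seeds of 5 genotypes at 2 ages. They were chosen by name, as all probe sets annotated to any of these genes. Each gene had 1 probe set, paired with that gene alone, so that 3 of 13356 genes with such a probe set, and 3 of 22810 probe sets on the Affymetrix array, are described. The genes were named with earlier results of these data known.

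Auxin (indole-3-acetic acid) is a growth hormone that patterns the embryo. Its transcriptional response is held down by Aux/IAA proteins, which bind auxin response factors and are destroyed when auxin joins them to the TIR1/AFB receptors. IAA30 and IAA31 are Aux/IAA proteins of an unusual branch: IAA30 lacks the degradation domain that the receptors bind, and IAA31 has an incomplete one. YUC4 is a flavin monooxygenase of the YUCCA family, which makes auxin from indole-3-pyruvate, and it acts in embryos together with other YUCCA genes. LEC1, a subunit of the NF-Y complex, and the B3-domain factors FUS3 and LEC2 are transcription factors that direct seed maturation, and LEC2 is known to switch on auxin synthesis genes, YUC4 among them, when it is induced in seedlings.

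The question was how far these genes depend on each regulator. Seeds came from plants homozygous for fus3-3 and from their wild type Col-0, and from plants homozygous for lec1-1 or lec2-1 and from their wild type WS. They were taken out of the siliques at 12 and at 8 days after flowering (DAF), from plants kept at 22 °C with 16 h of light a day. Each of the 10 groups of genotype and age had 3 arrays, called biological replicates in the labels and drawn from triplicate batches of plants. The Col-0 arrays at 12 DAF are described as biological replicates too, but their titles number them 1-1, 1-2 and 1-3, where the other groups have 1, 2 and 3. Whether these came from 1 batch is not given. Every comparison of fus3-3 with Col-0 at 12 DAF, and every age change of Col-0, rests on them. Whole seeds hold embryo, endosperm and seed coat, so that fewer cells of a type and less RNA per cell cannot be told apart in any value below.

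The values are log2 signal as deposited. Array medians lay between 4.30 and 4.71, array minima between 1.65 and 1.76, and replicate arrays correlated at r of 0.984 to 0.996 across genes. No 2 arrays held identical values. FUS3, LEC1 and LEC2 themselves are left out, since the probe set annotation paired none of them with a single-gene probe set. They may still be on the array, as 8730 of 22810 probe sets had no gene in that annotation. No mutant was checked by the transcript of its own mutated gene. A gene is said to have risen or fallen at an adjusted p under 0.05 (limma) where the change also reached 2-fold. The value after ± is the SE for a log2 change and the SD for a mean. The number of arrays, 3 per group, limits the precision of every value.

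IAA30 was a late gene of wild-type seeds whose rise was missing in fus3-3 and lec1-1 seeds and present in lec2-1 seeds. At 12 DAF its log2 signal was 4.35, 5.31 and 4.81 in fus3-3 seeds, against 7.53, 7.55 and 7.67 in Col-0 seeds. The highest fus3-3 array lay more than 2 units under the lowest Col-0 array. The fall was −2.76 ± 0.22 (adjusted p = 9.6e-06), that is 6.77-fold lower in fus3-3, and 286th in size from the lowest of 13356 genes. In that comparison 11.5% of all genes fell.

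The lec mutants differed from each other for IAA30 at 12 DAF. The values were 5.16, 5.33 and 5.43 in lec1-1 seeds and 7.11, 6.99 and 7.23 in lec2-1 seeds, against 7.81, 7.51 and 7.42 in WS seeds. The lec1-1 arrays lay far under both other groups, and the lec2-1 arrays lay just under those of WS with no overlap. IAA30 fell 4.85-fold in lec1-1 (−2.28 ± 0.16, adjusted p = 3.5e-08), where 9.93% of genes fell. In lec2-1 it stood at −0.48 ± 0.16 (adjusted p = 0.035, 95% interval −0.82 to −0.13), short of the 2-fold minimum, in a comparison where 1.32% of genes fell. The lec1-1 level was 3.49-fold under the lec2-1 level (−1.80 ± 0.16, adjusted p = 1.1e-06), where 5.49% of genes were lower.

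At 8 DAF IAA30 changed past the threshold in none of the mutants. Its log2 signal was 4.81, 4.51 and 4.40 in fus3-3 seeds, against 5.26, 5.75 and 5.44 in Col-0 seeds. The groups did not overlap, and the difference was −0.91 ± 0.22 (adjusted p = 0.023), or 1.88-fold lower in fus3-3. The call was made without fus3-3 replicate 1 (−1.03), without Col-0 replicate 1 (−1.02) and after quantile normalization again (−1.03). In the WS background the values were 5.30, 5.43 and 5.70 in lec1-1 and 5.07, 5.07 and 4.45 in lec2-1, against 5.11, 5.30 and 5.22 in WS. The lec1-1 arrays overlapped those of WS at 0.27 ± 0.16 (adjusted p = 0.29, interval −0.08 to 0.61). The lec2-1 arrays lay under those of WS at −0.35 ± 0.16 (adjusted p = 0.23, interval −0.70 to −0.004). At this age lec1-1 was 1.53-fold over lec2-1, at 0.62 ± 0.16 (adjusted p = 0.015), which is under the 2-fold minimum.

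**Figure D1:**
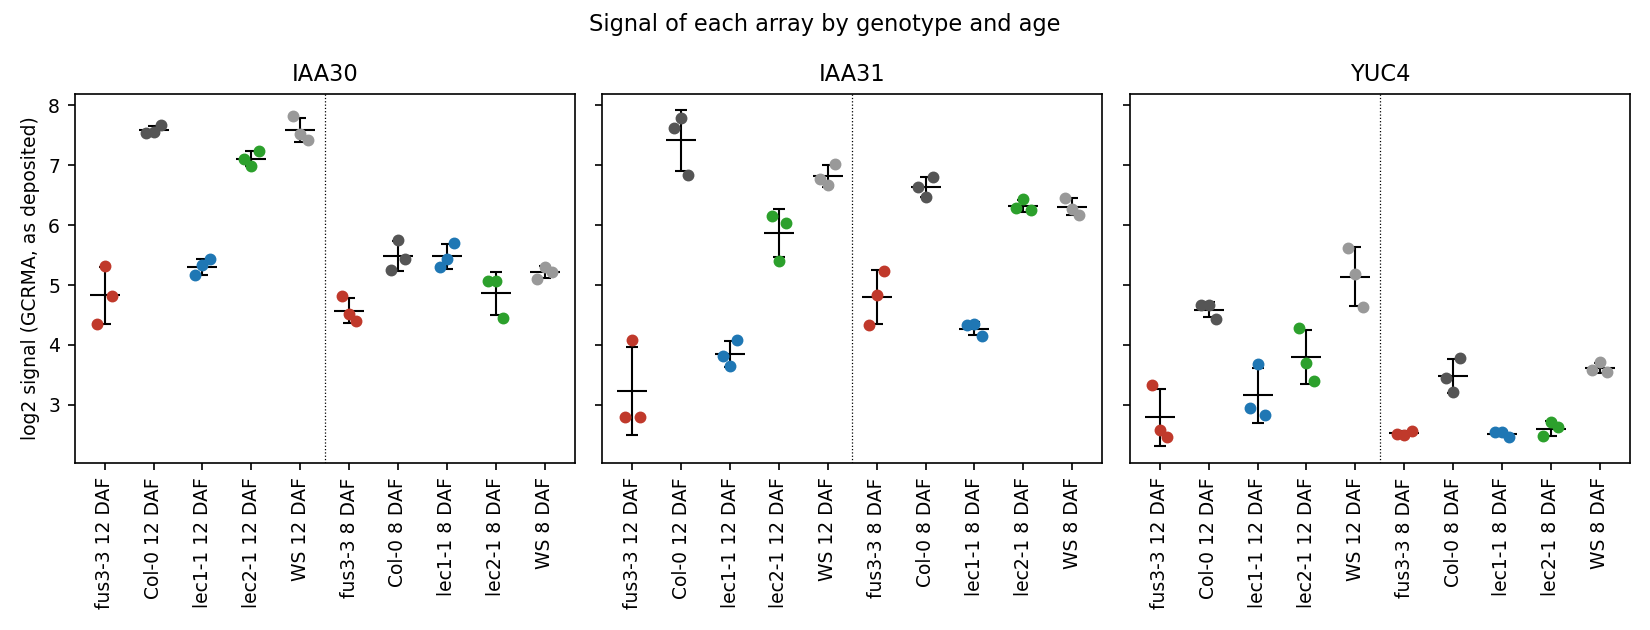
Log2 signal of IAA30, IAA31 and YUC4 on each of the 30 arrays (points), by genotype and age, with the group mean (wide bar) and SD (error bar, n = 3). IAA30 is low in fus3-3 and lec1-1 at 12 DAF, IAA31 is low in both at either age, and YUC4 lies under its wild type in every mutant.

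IAA31 fell in fus3-3 and lec1-1 seeds at both ages. At 12 DAF its log2 signal was 2.80, 4.08 and 2.80 in fus3-3 seeds, against 7.62, 7.78 and 6.84 in Col-0 seeds. No fus3-3 array came near the lowest Col-0 array, although replicate 2 of fus3-3 stood well over the other two. The fall was −4.18 ± 0.39 (adjusted p = 2.3e-05), or 18.2-fold, and ranked 106th from the lowest of all genes. In fus3-3 seeds the signal lay between the 33.6th and 46.5th percentile of the probe sets of its array, and in Col-0 seeds between the 73.5th and 82.8th.

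In lec1-1 seeds at 12 DAF IAA31 had 3.82, 3.65 and 4.08, in lec2-1 seeds 6.15, 5.41 and 6.03, and in WS seeds 6.77, 6.66 and 7.01. The 3 genotypes did not overlap, with lec2-1 between the others. IAA31 fell 7.83-fold in lec1-1 (−2.97 ± 0.17, adjusted p = 3.6e-09). In lec2-1 it was 1.94-fold lower (−0.95 ± 0.17, adjusted p = 0.00086, interval −1.32 to −0.59), just short of the minimum. Without WS replicate 2 or lec2-1 replicate 1 or 3 that value was −1.03, −1.10 or −1.04 and passed. The lec1-1 level was 4.04-fold under that of lec2-1 (−2.02 ± 0.17, adjusted p = 5.7e-07).

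At 8 DAF IAA31 had 4.34, 4.83 and 5.24 in fus3-3 seeds, against 6.63, 6.46 and 6.81 in Col-0 seeds. It fell 3.56-fold, without overlap (−1.83 ± 0.39, adjusted p = 0.011), where 4.25% of genes fell. The log2 signal was 4.33, 4.34 and 4.15 in lec1-1 and 6.28, 6.44 and 6.24 in lec2-1, against 6.46, 6.28 and 6.17 in WS. Here lec2-1 and WS occupied the same range, and lec1-1 lay about 2 units under both. IAA31 fell 4.08-fold in lec1-1 (−2.03 ± 0.17, adjusted p = 5.5e-07), where 5.77% of genes fell. In lec2-1 the difference was 0.02 ± 0.17 (adjusted p = 1), and its interval of −0.34 to 0.38 leaves no room for a 2-fold change. The lec1-1 level was 4.14-fold under that of lec2-1 (−2.05 ± 0.17, adjusted p = 1.2e-06), ranked 65th from the lowest of all genes, where 2.81% were lower.

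YUC4 fell in all 3 mutants at 12 DAF, and it was the member that fell in lec2-1 seeds. At 12 DAF its log2 signal was 3.33, 2.58 and 2.46 in fus3-3 seeds, against 4.67, 4.66 and 4.44 in Col-0 seeds. The groups lay more than 1 unit apart, and YUC4 fell 3.48-fold (−1.80 ± 0.22, adjusted p = 0.00013). In the WS background it had 2.95, 3.68 and 2.84 in lec1-1 and 4.28, 3.69 and 3.40 in lec2-1, against 5.61, 5.18 and 4.63 in WS. Both mutants lay under WS without overlap, and they overlapped each other.

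YUC4 fell 3.95-fold in lec1-1 at 12 DAF (−1.98 ± 0.26, adjusted p = 1.8e-05) and 2.55-fold in lec2-1 (−1.35 ± 0.26, adjusted p = 0.0016). In lec2-1 this was the 58th largest fall of 13356 genes, of which 176 were called lower. The difference between lec1-1 and lec2-1 was −0.63 ± 0.26 (adjusted p = 0.084, interval −1.20 to −0.07) and did not pass.

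At 8 DAF YUC4 had 2.52, 2.50 and 2.57 in fus3-3 seeds, against 3.45, 3.22 and 3.78 in Col-0 seeds. All fus3-3 arrays lay under those of Col-0 at −0.95 ± 0.22 (adjusted p = 0.016), or 1.94-fold, which is short of the minimum. Without Col-0 replicate 2 the value was −1.08 and passed. In the WS background YUC4 had 2.56, 2.54 and 2.47 in lec1-1 and 2.48, 2.72 and 2.63 in lec2-1, against 3.58, 3.71 and 3.55 in WS. Both mutants sat at one low level, and WS stood clear of them.

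YUC4 fell 2.13-fold in lec1-1 at 8 DAF (−1.09 ± 0.26, adjusted p = 0.0052) and 2.01-fold in lec2-1 (−1.01 ± 0.26, adjusted p = 0.022). In lec2-1 1.08% of genes fell. Both falls sit at the edge of the threshold: with each array centred on reference genes they were −0.81 and −0.94, under 2-fold. The lec2-1 call also ended without any 1 of the 6 arrays compared, with adjusted p between 0.052 and 0.079. The lec1-1 and lec2-1 means, at 2.52 and 2.61, were both too dim for a comparison between them.

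The YUC4 signal of all 9 mutant arrays at 8 DAF lay between the 20.6th and 32.0th percentile of the probe sets of its array, while the 25th percentile of the arrays was at a log2 signal of 2.47 to 2.62. The files hold no detection calls, so that where the lower group lies under a log2 signal of 3 the fold is read as a lower bound, for these and for other genes. That holds for YUC4 in every mutant at 8 DAF and in fus3-3 at 12 DAF. At 12 DAF, 2 of 3 arrays of YUC4 in lec1-1 and of IAA31 in fus3-3 also lay under 3, so that these folds are read in the same way. Differences of YUC4 between mutants at either age are limited by the dim signal, as are those between age changes that start from dim levels. They say little about how the effects compare.

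**Figure D2:**
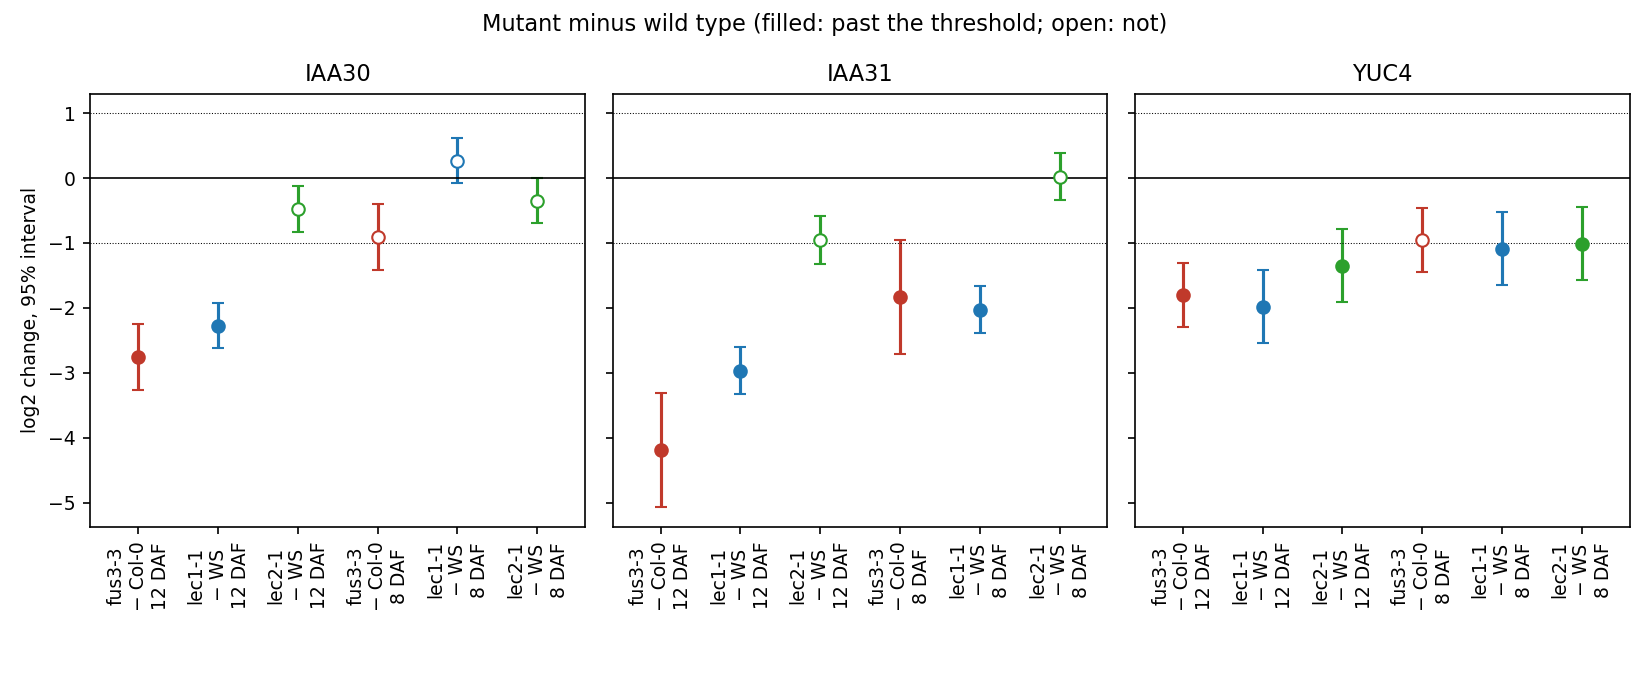
Log2 change of each member in each mutant against its own wild type, with its 95% interval from the limma fit. Dotted lines mark a 2-fold change. IAA31 in fus3-3 at 12 DAF stands at −4.18, and YUC4 is the member with a call in lec2-1, at −1.35 at 12 DAF and −1.01 at 8 DAF.

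Counted over the 6 comparisons of a mutant with its wild type, IAA30 passed in 2, IAA31 in 4 and YUC4 in 5, all of them falls. Of all genes, 11.5%, 9.93% and 1.32% fell in fus3-3, lec1-1 and lec2-1 at 12 DAF, and 4.25%, 5.77% and 1.08% at 8 DAF. Centring on reference genes ended the YUC4 calls at 8 DAF in lec1-1 and lec2-1. Without the fold minimum 4 more would count: IAA30 in lec2-1 at 12 DAF and in fus3-3 at 8 DAF, IAA31 in lec2-1 at 12 DAF, and YUC4 in fus3-3 at 8 DAF.

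The age changes of the wild types set the members apart again. IAA30 rose in Col-0 seeds, by 2.10 ± 0.22 or 4.29-fold (adjusted p = 8.3e-05), and in WS seeds by 2.37 ± 0.16 or 5.18-fold (adjusted p = 3.5e-08). Over all genes, 8.42% rose with age in Col-0 and 6.45% in WS. In lec2-1 it rose nearly as far, by 2.25 ± 0.16 (adjusted p = 8.0e-08), where 6.64% of genes rose. In fus3-3 and lec1-1 the change was 0.25 ± 0.22 (interval −0.26 to 0.76) and −0.17 ± 0.16 (interval −0.52 to 0.18), and the arrays of the ages overlapped in both.

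The difference between these age changes was tested. For IAA30 it was −1.85 ± 0.32 in fus3-3 against Col-0 (adjusted p = 0.0029) and −2.54 ± 0.23 in lec1-1 against WS (adjusted p = 1.5e-06). The lec1-1 value was the 71st lowest of all genes, where 6.68% were called lower, and 7.55% were in fus3-3. In lec2-1 against WS it was −0.12 ± 0.23 (adjusted p = 0.70, interval −0.62 to 0.37), where 2.01% were called lower.

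IAA31 stood higher at 12 than at 8 DAF in the wild types, without overlap of the arrays, but passed in neither. The change was 0.78 ± 0.39 in Col-0 (adjusted p = 0.16, interval −0.10 to 1.66) and 0.51 ± 0.17 in WS (adjusted p = 0.019, under 2-fold). In fus3-3 it fell with age (−1.58 ± 0.39, adjusted p = 0.023), where 4.81% of genes fell. That call ended without fus3-3 replicate 2 or 3 at 8 DAF or replicate 1 or 3 at 12 DAF, at adjusted p of 0.065 to 0.080. It stood at −0.43 ± 0.17 in lec1-1 (adjusted p = 0.077) and −0.46 ± 0.17 in lec2-1 (adjusted p = 0.053).

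Against its wild type, the age change of IAA31 was lower in fus3-3 by −2.35 ± 0.55 (adjusted p = 0.014). In lec1-1 and lec2-1 the differences were −0.94 ± 0.24 (adjusted p = 0.0065) and −0.97 ± 0.24 (adjusted p = 0.012), both just under 2-fold. After quantile normalization again they were −1.05 and −1.03 and passed. The lec1-1 difference also passed, at up to −1.06, without WS replicate 1 or lec1-1 replicate 3 at 8 DAF, or without WS replicate 2 or lec1-1 replicate 3 at 12 DAF. The lec2-1 difference passed, at up to −1.12, without WS replicate 1 or lec2-1 replicate 3 at 8 DAF, or without WS replicate 2 or lec2-1 replicate 1 or 3 at 12 DAF.

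YUC4 rose with age in Col-0, by 1.11 ± 0.22 (adjusted p = 0.0035), in lec2-1 by 1.19 ± 0.26 (adjusted p = 0.0025) and in WS by 1.53 ± 0.26 (adjusted p = 0.00026). The lec2-1 rise is read as a lower bound, since YUC4 averaged 2.61 in lec2-1 at 8 DAF. The Col-0 value was 0.98 without replicate 2 at 8 DAF and the lec2-1 value 0.94 without replicate 1 at 12 DAF, both short of 2-fold. In fus3-3 and lec1-1 it stood at 0.26 ± 0.22 (adjusted p = 0.61) and 0.63 ± 0.26 (adjusted p = 0.088). Its differences of age change start from mutant levels near the dim end of the arrays at 8 DAF. None passed, at −0.85 ± 0.31 in fus3-3 (adjusted p = 0.088), −0.89 ± 0.37 in lec1-1 (adjusted p = 0.059) and −0.34 ± 0.37 in lec2-1 (adjusted p = 0.51). The fus3-3 value was −1.12 and passed without replicate 1 at 12 DAF, and the lec1-1 value was −1.15 and passed without WS replicate 3 or lec1-1 replicate 2 at 12 DAF.

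**Figure D3:**
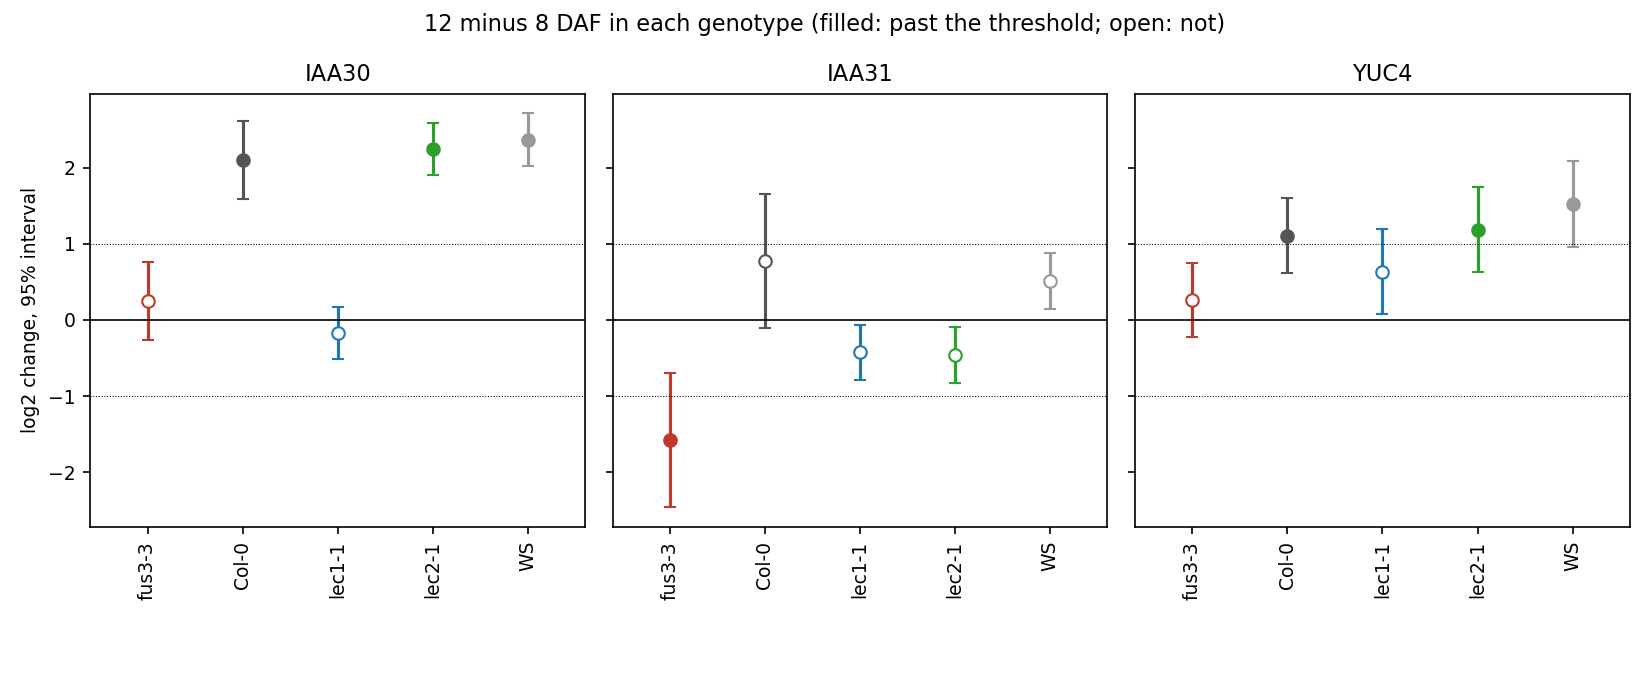
Log2 change from 8 to 12 DAF (12 minus 8 DAF) of each member in each genotype, with its 95% interval from the limma fit. IAA30 rises by more than 2 log2 units in Col-0, lec2-1 and WS and stays near 0 in fus3-3 and lec1-1, and IAA31 falls in fus3-3.

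The effect of fus3-3 was set against those of the lec mutants in 1 fit of all 30 arrays, in which mutation and background cannot be told apart. Against lec2-1, the fus3-3 effect at 12 DAF was stronger by −2.28 ± 0.27 for IAA30 (adjusted p = 8.6e-07) and by −3.23 ± 0.41 for IAA31 (adjusted p = 1.6e-06), where 9.44% of genes were called lower. For YUC4 the difference was −0.45 ± 0.35 (adjusted p = 0.41, interval −1.19 to 0.28), limited by the dim signal in fus3-3. At 8 DAF it was −1.85 ± 0.41 for IAA31 (adjusted p = 0.0043), −0.56 ± 0.27 for IAA30 (adjusted p = 0.28), where 2.9% were called lower.

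Against lec1-1 at 12 DAF, the fus3-3 effect on IAA31 was stronger by −1.22 ± 0.41 (adjusted p = 0.042), where 4.7% of genes were called lower. That call ended when the replicate number was a block (adjusted p = 0.055) and with quantile normalization again (−1.06, adjusted p = 0.065). It also ended without replicate 1 or 3 of fus3-3 or lec1-1, or replicate 1 or 2 of Col-0 or WS, all at 12 DAF, at values down to −1.0. IAA30 and YUC4 stood at −0.48 ± 0.27 (adjusted p = 0.24) and 0.18 ± 0.35 (adjusted p = 0.76). The YUC4 value is limited by the dim signal in both mutants and says little about how the effects compare. At 8 DAF the difference was −1.17 ± 0.27 for IAA30 (adjusted p = 0.0088), where 2.25% of genes were called lower, and 0.20 ± 0.41 for IAA31 (adjusted p = 0.85). YUC4 is not compared at 8 DAF, since its signal was dim in every mutant.

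The order over the 10 groups takes the values of both backgrounds to be on 1 scale, and whether all arrays were normalized together is not given. IAA30 had its highest means in Col-0 and WS at 12 DAF, at 7.58 ± 0.07 and 7.58 ± 0.20 (SD, n = 3), with arrays that overlapped. Next came lec2-1 at 12 DAF, at 7.11 ± 0.12, apart from WS. A gap of 1.63 followed, and the other 7 groups lay between 5.48 ± 0.25 in Col-0 at 8 DAF and 4.57 ± 0.21 in fus3-3 at 8 DAF. Among these 7, each group overlapped the next in the order, except WS and lec2-1 at 8 DAF.

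IAA31 ran from 7.41 ± 0.50 in Col-0 at 12 DAF to 3.23 ± 0.74 in fus3-3 at 12 DAF. The upper part of the order held both wild types and lec2-1 at either age, down to 5.86 ± 0.40 in lec2-1 at 12 DAF. After a gap of 1.06 came fus3-3 at 8 DAF, lec1-1 at 8 and at 12 DAF and fus3-3 at 12 DAF. Neighbours did not overlap at 4 of the 9 steps, which were Col-0 to lec2-1 at 8 DAF, WS at 8 DAF to lec2-1 at 12 DAF, lec2-1 at 12 DAF to fus3-3 at 8 DAF, and lec1-1 at 8 to 12 DAF.

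YUC4 was highest in WS at 12 DAF, at 5.14 ± 0.49, and in Col-0 at 12 DAF, at 4.59 ± 0.13, and these overlapped. Col-0 at 12 DAF lay clear of the next group. From lec2-1 at 12 DAF, at 3.79 ± 0.45, down to lec1-1 at 8 DAF, at 2.52 ± 0.04, every group overlapped its neighbour.

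The other auxin genes did not share one direction. In the annotation used, 17 of 110 auxin genes listed by role had a single-gene probe set. These were 7 of 29 Aux/IAA genes, 4 of 19 synthesis genes and 6 of 17 conjugation and turnover genes. No receptor, response factor or transport gene of the lists (6, 23 and 16 genes) was among them. That annotation gave no gene for 8730 of 22810 probe sets, so that a gene missing here need not be missing from the array. Of the 14 measured genes beside the members, 5 rose and 3 fell in fus3-3 at 12 DAF, 4 rose and 3 fell in lec1-1, and 3 rose and 0 fell in lec2-1. Of all genes, 11.9%, 10.4% and 5.08% rose and 11.5%, 9.93% and 1.32% fell in these comparisons. At 8 DAF 1 rose and 1 fell in fus3-3, 3 rose and 1 fell in lec1-1, and 2 rose and 0 fell in lec2-1. Of all genes, 4.03%, 4.75% and 1.6% rose and 4.25%, 5.77% and 1.08% fell at that age. The median log2 change of the 14 genes lay between −0.16 and 0.02 over the 6 comparisons, beside −0.11 to 0.01 for all genes tested.

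Among the other Aux/IAA genes, IAA34 fell in fus3-3 at 12 DAF, with a mean log2 signal of 2.68 in fus3-3 and 5.60 in Col-0 (−2.92 ± 0.24, adjusted p = 1.1e-05), a lower bound by the same rule. It also fell in lec1-1 at 12 DAF, at 3.86 in lec1-1 and 5.42 in WS (−1.56 ± 0.25, adjusted p = 0.00013), and stood at −0.30 ± 0.25 in lec2-1 (adjusted p = 0.37). Like IAA30 it rose with age in Col-0, lec2-1 and WS, by 3.08 ± 0.24, 2.58 ± 0.25 and 2.86 ± 0.25, but it also rose in lec1-1, by 1.11 ± 0.25. These rises are lower bounds as well, since IAA34 averaged between 2.53 and 2.75 at 8 DAF in all groups.

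IAA18 moved the other way. It rose at 12 DAF in fus3-3 by 1.67 ± 0.16, in lec1-1 by 1.84 ± 0.17 and in lec2-1 by 1.01 ± 0.17, and the lec2-1 call ended after quantile normalization again. IAA29 rose in fus3-3 at 12 DAF, by 1.42 ± 0.22, and stood at −0.75 ± 0.19 in lec1-1. The lower group averaged 2.98 in Col-0 and 2.44 in lec1-1, so that both changes are lower bounds. IAA20, a close relative of IAA30, stood between −0.64 and 0.40 and IAA33 between −0.17 and 0.15, with no call in any mutant.

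Of the measured synthesis genes beside YUC4, YUC2, YUC6 and YUC11 were not called in any mutant. Their group means lay between 1.89 and 2.58, near or under the 25th percentile of the arrays. The highest was YUC6 in WS at 12 DAF, where lec1-1 stood at −0.66 ± 0.19 and lec2-1 at −0.66 ± 0.19 (adjusted p = 0.0075 and 0.017), short of 2-fold and at the dim end.

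Genes that bind auxin to amino acids moved strongly, in both directions. GH3.5 rose in all 6 comparisons, by 3.40 ± 0.18 in fus3-3, 2.92 ± 0.17 in lec1-1 and 1.98 ± 0.17 in lec2-1 at 12 DAF, and by 1.42 ± 0.18, 4.26 ± 0.17 and 1.69 ± 0.17 at 8 DAF. GH3.3 rose in both lec mutants, by 2.44 ± 0.18 in lec1-1 and 3.21 ± 0.18 in lec2-1 at 12 DAF and by 2.05 ± 0.18 and 1.58 ± 0.18 at 8 DAF, and stood at −0.25 ± 0.20 and −0.36 ± 0.20 in fus3-3. GH3.17, whose enzyme joins auxin to glutamate, rose at 12 DAF in fus3-3 by 1.99 ± 0.19 and in lec1-1 by 2.27 ± 0.17, and in lec1-1 at 8 DAF by 1.66 ± 0.17. The wild-type means were 2.37, 2.42 and 2.39, so that these rises are lower bounds. At 8 DAF GH3.17 averaged 4.18 in Col-0, and in fus3-3 it averaged 4.56 at 8 and 4.36 at 12 DAF. The wild types also differed at 8 DAF for GH3.3, at 4.78 in WS and 6.73 in Col-0. Its means at that age were 6.83 in lec1-1, 6.37 in lec2-1 and 6.37 in fus3-3. For GH3.5 the means at 8 DAF were 5.61 in WS and 6.96 in Col-0. Setting these levels side by side takes both backgrounds to be on 1 scale.

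GH3.9, another gene of the GH3 family, fell in the 4 comparisons in which IAA31 fell. At 12 DAF its fall was −3.83 ± 0.16 in fus3-3 and −3.62 ± 0.14 in lec1-1, and at 8 DAF −1.29 ± 0.16 and −1.36 ± 0.14. With age GH3.9 fell in every genotype, at −2.61 ± 0.16 in Col-0 and −2.22 ± 0.14 in WS, whereas IAA31 stood higher at 12 DAF in both wild types. GH3.1 rose in fus3-3 at 12 DAF, by 1.41 ± 0.24, and fell in lec1-1 (−1.02 ± 0.05), a fall that ended after either rescaling of the arrays. The lower group averaged 2.49 in Col-0 and 2.26 in lec1-1, so that both changes are lower bounds. DAO1, which oxidises auxin, fell in fus3-3 at 12 DAF (−1.51 ± 0.29, adjusted p = 0.0024). Centring on reference genes moved the median of all genes by 0.30 in lec1-1 against WS at 12 DAF and by 0.28 at 8 DAF, and lower genes then made up 32.1% and 30.7% of calls, beside 48.9% and 54.8% as deposited. It moved that median by 0.28 and 0.21 in lec1-1 against lec2-1 at 12 and 8 DAF (26.5% and 33.5% of calls lower, beside 49.9% and 55.4%). In the fus3-3 effect against the lec1-1 effect the shift was −0.33 and −0.26 (82.9% and 70.6% lower, beside 56.5% and 45.0%). With age it was 0.13 in Col-0, 0.11 in lec1-1 and 0.10 in WS. Centring ended the YUC4 calls at 8 DAF in lec1-1 and lec2-1 and, in lec1-1 against lec2-1, those of IAA34 at 12 DAF and GH3.9 at 8 DAF. It also ended the call of the IAA29 age change in fus3-3 against Col-0. In the other direction it added calls of IAA18 and GH3.5 as higher in lec1-1 against lec2-1 at 12 DAF. It also added that of the IAA31 age change in lec2-1 against WS.

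**Figure D4:**
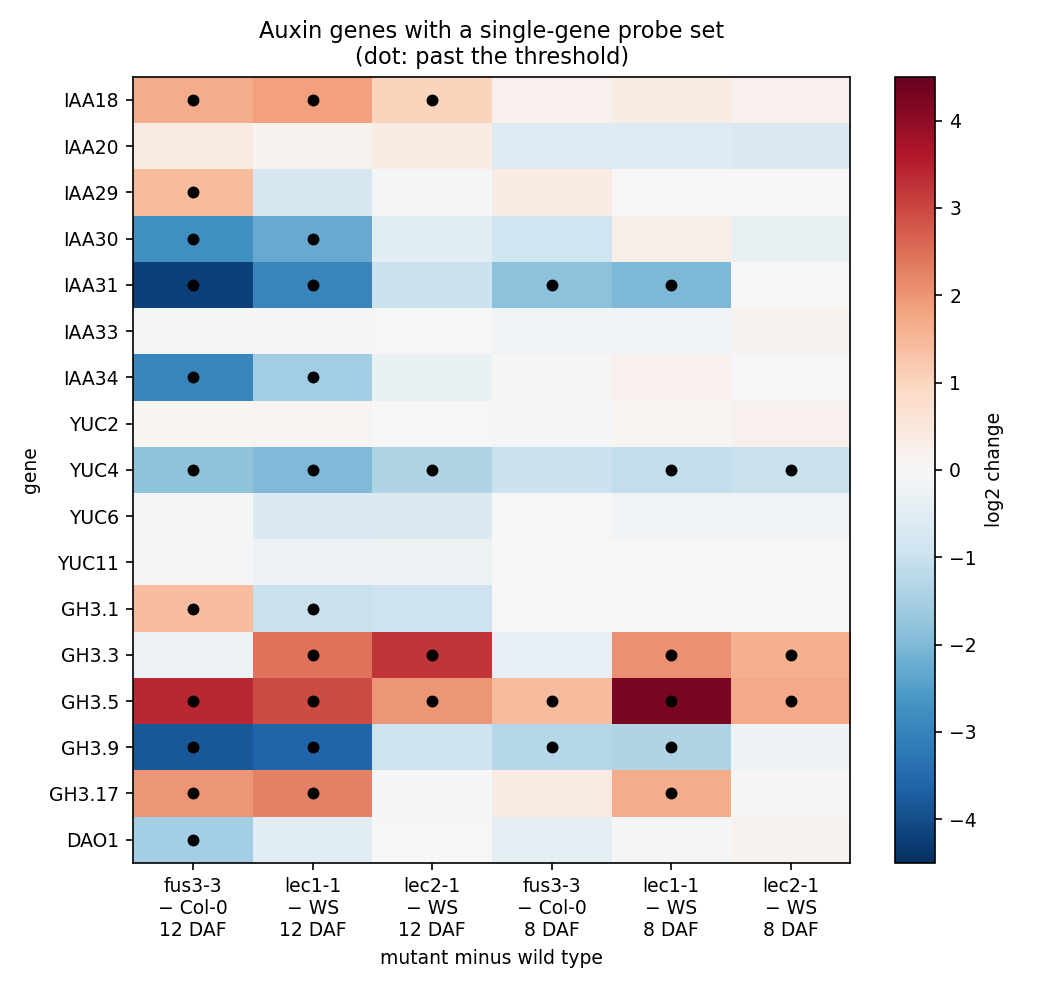
Log2 change (colour) of the 17 auxin genes with a single-gene probe set in each mutant against its wild type, with a dot where the change passed the threshold. IAA30, IAA31, IAA34, YUC4 and GH3.9 are lower and GH3.5, IAA18 and GH3.17 higher in fus3-3 and lec1-1 at 12 DAF.

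The members were not each other's closest match. Over the 10 group means, taken as on 1 scale across both backgrounds, Pearson's r was 0.89 between IAA30 and YUC4, 0.68 between IAA31 and YUC4 and 0.60 between IAA30 and IAA31. Among the 6224 genes whose group means spanned at least 1 log2 unit, IAA31 lay at the 72.2nd percentile of likeness to IAA30 and YUC4 at the 95.1st, and YUC4 lay at the 84.9th percentile of likeness to IAA31.

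The genes most like IAA30 were AT1G10310 (r = 0.99), CDI, AT3G01350, AT3G22750 and AT1G11020 (r = 0.97 each). Over all 30 arrays AT3G01350 came first, at r = 0.95, and it was the 1 gene of the 5 that stayed among the first 5. Those most like IAA31 were AT4G34540 (r = 0.99), PGM (AT1G78050, r = 0.98), AT5G16240 (r = 0.98), AT4G11860 (r = 0.97) and AT5G38830 (r = 0.97), of which 2 stayed over all arrays. Those most like YUC4 were ATOEP16-4 (r = 0.98), a plastid envelope channel gene, AT3G52120 and CHR23, a chromatin remodeller gene (r = 0.97 each), AT2G27940 and AT1G16210 (r = 0.96 each), of which 1 stayed.

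Markers of seed tissues moved in the same comparisons. The 1 measured of 8 embryo markers, BBM, a transcription factor of the embryo, had mean log2 signals at 12 DAF of 2.65 in fus3-3 against 6.07 in Col-0, and of 2.70 in lec1-1 and 3.55 in lec2-1 against 5.91 in WS, all falls. The falls in fus3-3 and lec1-1 at 12 DAF are lower bounds by the same rule. At 8 DAF BBM fell in lec1-1 (−2.72 ± 0.30, a lower bound at a mean of 2.68) and lec2-1 (−1.57 ± 0.30) and stood at −0.45 ± 0.25 in fus3-3.

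Of 8 endosperm markers 3 were measured. MPC rose at 12 DAF in fus3-3 by 3.05 ± 0.15 and in lec1-1 by 3.39 ± 0.33. These are lower bounds, since MPC averaged 2.62 in Col-0 and 2.75 in WS. The other 2, AGL62 and IKU2, stayed between 2.38 and 2.81 in all groups at that age. The mean of the 3 endosperm markers at 12 DAF lay between 3.40 and 3.69 in fus3-3, against 2.55 and 2.59 in Col-0, and between 3.41 and 3.91 in lec1-1 and 2.67 and 3.08 in lec2-1, against 2.67 and 2.73 in WS. The 1 measured of 6 silique wall markers, ALC, rose at 12 DAF by 1.67 ± 0.26 in fus3-3, 2.06 ± 0.19 in lec1-1 and 1.57 ± 0.19 in lec2-1.

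Of the 3 measured of 11 seed coat markers, PER36 fell in fus3-3 at 8 DAF (−2.06 ± 0.29, a lower bound at a mean of 2.75), and no other call was made. Their mean at 12 DAF lay between 5.24 and 5.35 in fus3-3, against 5.30 and 5.91 in Col-0, and between 4.79 and 4.97 in lec1-1 and 4.60 and 5.0 in lec2-1, against 4.74 and 5.13 in WS. RNA quality was read from actin and GAPDH control probes, as the signal at the 3' end less that at the 5' end. For actin at 12 DAF this was 5.91 ± 0.76 in fus3-3 against 4.87 ± 0.04 in Col-0, and 5.47 ± 0.18 in lec1-1 and 5.32 ± 0.10 in lec2-1 against 5.33 ± 0.02 in WS (log2, SD, n = 3). At 8 DAF it was 5.60 ± 0.07 in fus3-3 against 5.54 ± 0.04 in Col-0, and 6.03 ± 0.09 in lec1-1 and 5.90 ± 0.10 in lec2-1 against 5.69 ± 0.04 in WS. The mean of the GAPDH control was lower in each mutant, while that of actin was higher in each except lec2-1 at 12 DAF. At 12 DAF the GAPDH value was 1.92 ± 0.19 in fus3-3 against 2.37 ± 0.34 in Col-0, and 1.86 ± 0.02 in lec1-1 and 2.19 ± 0.13 in lec2-1 against 2.25 ± 0.06 in WS. At 8 DAF it was 1.39 ± 0.44 in fus3-3 against 1.58 ± 0.03 in Col-0, and 1.60 ± 0.07 in lec1-1 and 1.57 ± 0.09 in lec2-1 against 1.71 ± 0.06 in WS. The part of these markers and of RNA quality in the falls of the members was not tested.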

How the data were processed

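Per the labels' protocols, 2 µg of total RNA, prepared with a plant RNA reagent and RNeasy columns, were made into labelled cRNA for Affymetrix arrays. Per the submitters' processing notes, GCOS 1.3 and GCRMA were used, and the deposited values are log2 signal per probe set. The sources used here give neither the GCRMA version nor whether all arrays went through it together. Probe sets were named with GEO's platform annotation and a TAIR10.1 gene table. Of 22810 probe sets, 64 were controls, 13513 had 1 gene, 503 had several genes and 8730 had no gene in that annotation. Of the probe sets with 1 gene, the brightest per gene was kept (13356 genes).

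The values were fitted with limma 3.58.1 in R 4.3.3, 1 mean per group, with 12 arrays of the Col-0 set and 18 of the WS set in separate fits, eBayes without trend, and Benjamini-Hochberg adjustment over all genes. The fit was tested on simulated data. The difference between the fus3-3 and lec effects used all 30 arrays.

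The members, the auxin and marker lists and the rule for named genes were chosen with earlier results of these data known. Named genes are the members, auxin genes called in any mutant, and the 5 genes most like each member over the group means. Auxin genes not called are also named, mostly with ranges. Markers are named where called, as are the uncalled endosperm markers, and the range of the list mean is given for endosperm and seed coat. The alternatives were quantile normalization again, centring on 6 of 14 reference genes, all probe sets, genes over the 40th percentile of signal, fewer or more arrays in the fit, trended and robust variances, a block for the replicate number, no fold minimum, and leaving out each array. Same-numbered arrays deviated together only between fus3-3 at 12 and at 8 DAF (r = 0.25, 0.22 and 0.45), where every pair passed 0.1. The plots used matplotlib 3.10.9 (Python 3.11.15).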

Additional observations from a re-analysis of the deposited data

Results flagged for a closer look

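For IAA30, the age change in fus3-3 and in lec1-1 differed from that of the wild type, by −1.85 and −2.54 on the log2 scale. Its level differed between lec1-1 and lec2-1 at 12 DAF by −1.80, and the fus3-3 effect differed from the lec2-1 effect at 12 DAF by −2.28 and from the lec1-1 effect at 8 DAF by −1.17.

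For IAA31, the age change in fus3-3 differed from that in Col-0 by −2.35. Its level differed between lec1-1 and lec2-1 by −2.02 at 12 DAF and −2.05 at 8 DAF. The fus3-3 effect on it differed from the lec1-1 effect at 12 DAF by −1.22, and from the lec2-1 effect by −3.23 at 12 DAF and −1.85 at 8 DAF. These 11 are the differences that passed the threshold, so that passing is no further support for them. The IAA31 difference from the lec1-1 effect at 12 DAF was the least firm. Its call ended after quantile normalization again, with the replicate block, and without any 1 of 8 arrays. The differences that involve fus3-3 and a lec mutant also involve 2 backgrounds. For YUC4, whose signal was dim in every mutant at 8 DAF, such differences are limited by the low signal. Groups of 3 arrays were too small to be examined for single arrays that stand apart.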

How the results depend on the processing

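Quantile normalization again brought 4 differences past the threshold: IAA30 in fus3-3 against Col-0 at 8 DAF (−1.03), the age change of IAA31 in lec1-1 (−1.05) and lec2-1 (−1.03) against WS, and that of YUC4 in lec1-1 (−1.04). It ended the IAA31 difference between the fus3-3 and lec1-1 effects at 12 DAF (−1.06), as did the replicate block (−1.22, adjusted p = 0.055), which changed no other call. Centring on reference genes ended the YUC4 falls at 8 DAF in lec1-1 (−0.81) and lec2-1 (−0.94) and brought the lec2-1 age change of IAA31 past the threshold (−1.03). With only the arrays of the groups compared, the fall of IAA31 with age in fus3-3 (−1.58) did not pass. Without a fold minimum, 8 further values passed: IAA30 in lec2-1 at 12 DAF (−0.48), in fus3-3 at 8 DAF (−0.91) and in lec1-1 against lec2-1 at 8 DAF (0.62), IAA31 in lec2-1 at 12 DAF (−0.95), in WS with age (0.51) and in the lec1-1 and lec2-1 age changes (−0.94 and −0.97), and YUC4 in fus3-3 at 8 DAF (−0.95). The auxin genes called then numbered 10, against 4, in lec2-1 at 12 DAF and 5, against 3, in fus3-3 at 8 DAF.

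Leaving out 1 array changed the call of 12 differences, whose values ran as follows. In fus3-3 against Col-0 at 8 DAF they ran from −1.03 to −0.77 for IAA30 and from −1.08 to −0.81 for YUC4. In lec2-1 against WS they ran from −1.10 to −0.73 for IAA31 at 12 DAF and from −1.06 to −0.94 for YUC4 at 8 DAF. With age they ran from −2.0 to −1.36 for IAA31 in fus3-3, and from 0.98 to 1.26 in Col-0 and 0.94 to 1.38 in lec2-1 for YUC4. The differences of age change ran from −1.12 to −0.68 for YUC4 in fus3-3 and −1.15 to −0.66 in lec1-1, and from −1.06 to −0.84 in lec1-1 and −1.12 to −0.75 in lec2-1 for IAA31. The IAA31 difference between the fus3-3 and lec1-1 effects at 12 DAF ran from −1.64 to −1.0. The cause of these changes was not tested. The filter on dim genes, all probe sets, trended and robust variances and 1 fit of all 30 arrays changed no call of a member. Over all 30 arrays in place of group means, 1, 2 and 1 of the 5 genes most like IAA30, IAA31 and YUC4 were shared. No member had a second probe set to try. Low signal limits the YUC4 folds.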
